A study of Mus musculus with 6 samples.

Results

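Transcripts of 31 neutrophil genes, chosen by symbol to cover the steps of granule formation from the promyelocyte to the mature cell, were followed on 6 arrays of sorted splenic regulatory T cells. The gene annotation of the array gave a probe set under the symbol alone for 26 of them, out of 18193 genes measured in all, and where a gene had several, the brightest on average over the 6 arrays stands for it. Cebpe, Ly6g, Retnlg, Mmp25 and Fpr1 had no such probe set and are not analysed here. The level of the probe set chose it, so the heights themselves are given as a description.

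All mice were female NOD mice with the BDC2.5 T cell receptor transgene and a Foxp3GFP reporter, and each array held RNA from 1 mouse. The 3 treated mice were RAG1o/o, without RAG1 and so without rearranged receptor genes of their own beside the transgene. They received 37.5 µg of the anti-CD3 antibody KT3 intravenously on 5 consecutive days from the age of 17 days, and were 29, 29 and 28 days old when their cells were sorted. The 3 untreated mice were RAG1+/o, with 1 working copy, and were 29, 28 and 28 days old. Genotype and treatment differed together and cannot be told apart. Cells of both groups were sorted as CD4+ GFP+ after leaving out those with B220, CD8a or CD11b/c, so neutrophils, which carry CD11b, were outside the gate. Values are log2 RMA intensities. RMA gives no zero, a probe set is compared only with itself on other arrays, and an n of 3 arrays per group limits the precision. Values are listed in the order of replicates 1, 2 and 3 of a group. For these genes untreated replicate 3 stood apart from the other 5 arrays, and treated replicate 2 from the other 4, so the group comparison is given with and without them.

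Neutrophils acquire their granules in a fixed order in the bone marrow. Primary (azurophil) granule proteins are made by promyelocytes, secondary (specific) granule proteins by myelocytes and metamyelocytes, and tertiary (gelatinase) granule proteins by band cells. Receptors for chemoattractants and cytokines follow in the mature cell. Transcripts of granule proteins are made mostly at the stage that packs them, which is why their mixture describes the maturity of a population. In newborn and young mice the spleen also forms blood cells, neutrophils included.

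The secondary granule genes were very high on 5 arrays and low on untreated replicate 3. Ngp, the neutrophilic granule protein, measured 14.56, 13.81 and 14.20 in treated samples, against 14.27, 14.40 and 6.33 in untreated samples. Chil3, the chitinase-like protein Ym1, measured 14.27, 13.62 and 14.15 in the treated samples and 13.71, 14.43 and 5.37 in the untreated ones. On untreated replicate 3 alone these genes lay low, 242-fold (Ngp) and 406-fold (Chil3) under the mean log2 value of the other 5 arrays. Lcn2, the iron-siderophore binding lipocalin 2, measured 13.75, 12.10 and 13.30 in the treated samples and 13.21, 12.78 and 4.77 in the untreated ones. Camp, the cathelicidin antimicrobial peptide, measured 13.47, 12.26 and 12.10 against 12.83, 12.24 and 5.89. The measured difference of untreated replicate 3 was 306-fold for Lcn2 and 103-fold for Camp. On that array Chil3, Lcn2, Ngp and Camp lay under the array's median of 6.44, and no detection call was used here, so these folds compare measured values that may be at background and may understate the fall. Ltf, the iron-binding protein lactoferrin, measured 13.51, 11.78 and 13.65 against 12.94, 12.76 and 7.37, and Cd177, a surface protein of neutrophils, 11.65, 9.38 and 11.73 against 10.75, 10.66 and 7.70. For Cd177 the low value of treated replicate 2 also stood apart from the other 4 arrays. In each of the 6 genes the groups overlapped, with untreated replicate 1 between the lowest and the highest treated value. Untreated replicate 2 also lay there except in Chil3, where it was the highest of the 6 arrays.

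**Figure D1:**
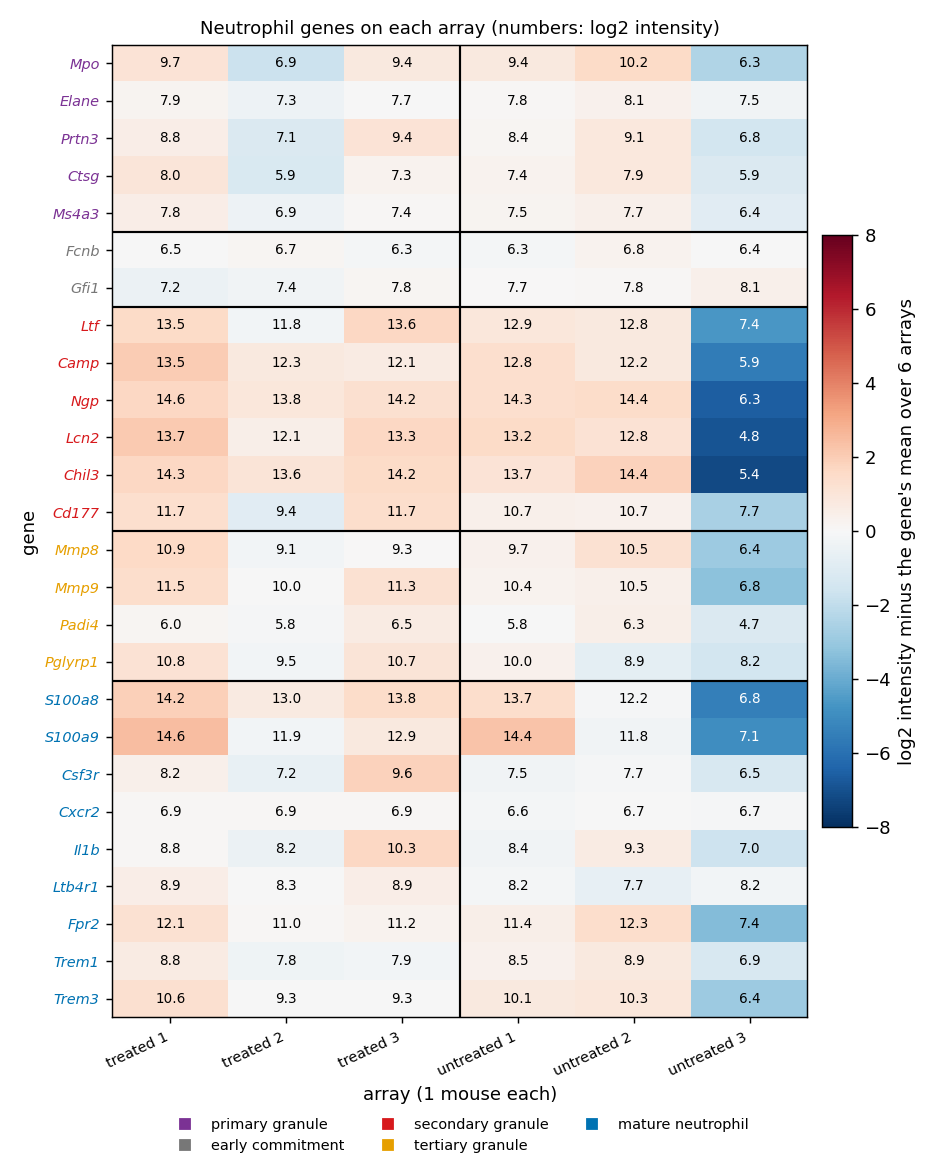
Log2 intensity of the 26 neutrophil genes (rows, grouped and coloured by stage) on each of the 6 arrays (columns, 1 mouse each); colour gives the value minus the gene's mean over the 6 arrays. The deepest blue cells of untreated replicate 3 are S100a8, S100a9 and the secondary granule genes other than Cd177, and treated replicate 2 is pale blue for Mpo, Prtn3 and Ctsg.

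The primary granule genes divided the arrays otherwise, with low values on treated replicate 2 as well as on untreated replicate 3. Mpo, myeloperoxidase, measured 9.73, 6.91 and 9.41 in treated samples, against 9.42, 10.19 and 6.27 in untreated samples. Ctsg, the serine protease cathepsin G, measured 8.03, 5.87 and 7.35 against 7.36, 7.92 and 5.91. For Ctsg treated replicate 2 was the lowest of all 6 arrays. Prtn3, the serine protease proteinase 3, measured 8.80, 7.11 and 9.38 against 8.41, 9.10 and 6.77. Ms4a3, a tetraspan membrane protein of granulocyte progenitors, measured 7.78, 6.89 and 7.38 against 7.51, 7.67 and 6.38. Elane, neutrophil elastase, varied least, at 7.95, 7.33 and 7.68 against 7.81, 8.08 and 7.46. In all 5 genes treated replicate 2 was the lowest array after untreated replicate 3 or below it, against 25.7% of all genes. Untreated replicate 2 lay above untreated replicate 1 in all 5, against 10080 of all 18193 genes.

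Promoters are printed for those genes of the 2 stages that held a match to at least 1 of 2 short patterns, from RefSeq on GRCm38.p6. Each is the 250 bases before the gene's start. Ms4a3, Camp, Chil3 and Cd177 held neither pattern and are not printed, so the choice follows the matches and not the values on the arrays. Capitals mark matches on either strand to GAGGAAG, a core of sites bound by the myeloid factor PU.1, and to TTGCNNAA, a core of sites bound by C/EBP factors. Shown first are the primary granule genes Mpo (chr11:87793534-87793783, plus strand), Elane (chr10:79886062-79886311, plus strand), Prtn3 (chr10:79879417-79879666, plus strand) and Ctsg (chr14:56102575-56102824, minus strand), whose capitals are all GAGGAAG matches.
Mpo: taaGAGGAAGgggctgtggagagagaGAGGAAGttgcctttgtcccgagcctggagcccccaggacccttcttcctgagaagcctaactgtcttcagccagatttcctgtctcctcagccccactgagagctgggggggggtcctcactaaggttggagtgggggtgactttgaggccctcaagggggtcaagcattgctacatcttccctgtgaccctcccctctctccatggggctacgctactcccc
Elane: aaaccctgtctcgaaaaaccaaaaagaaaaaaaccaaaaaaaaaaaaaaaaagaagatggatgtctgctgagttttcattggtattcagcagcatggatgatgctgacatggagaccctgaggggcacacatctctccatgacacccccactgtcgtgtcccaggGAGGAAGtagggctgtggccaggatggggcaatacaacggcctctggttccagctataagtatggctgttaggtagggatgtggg
Prtn3: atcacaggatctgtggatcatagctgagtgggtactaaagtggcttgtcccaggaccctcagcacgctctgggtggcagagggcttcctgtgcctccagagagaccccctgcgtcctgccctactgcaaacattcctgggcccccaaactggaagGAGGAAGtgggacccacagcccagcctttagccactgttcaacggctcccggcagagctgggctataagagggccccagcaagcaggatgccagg
Ctsg: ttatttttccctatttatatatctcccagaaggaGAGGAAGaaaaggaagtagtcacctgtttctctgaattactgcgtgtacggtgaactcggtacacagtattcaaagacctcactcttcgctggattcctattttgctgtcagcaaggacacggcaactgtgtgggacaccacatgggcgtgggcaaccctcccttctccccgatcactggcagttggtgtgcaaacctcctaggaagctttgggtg
The secondary granule genes are Ltf (chr9:111019042-111019291, plus strand), Ngp (chr9:110419558-110419807, plus strand) and Lcn2 (chr2:32387740-32387989, minus strand), whose capitals are TTGCNNAA matches except for the last run in Lcn2.
Ltf: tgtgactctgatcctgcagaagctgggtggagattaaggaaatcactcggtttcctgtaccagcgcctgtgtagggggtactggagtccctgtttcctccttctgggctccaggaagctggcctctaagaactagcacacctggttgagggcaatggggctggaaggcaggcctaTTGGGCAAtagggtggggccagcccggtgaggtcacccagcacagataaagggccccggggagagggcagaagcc
Ngp: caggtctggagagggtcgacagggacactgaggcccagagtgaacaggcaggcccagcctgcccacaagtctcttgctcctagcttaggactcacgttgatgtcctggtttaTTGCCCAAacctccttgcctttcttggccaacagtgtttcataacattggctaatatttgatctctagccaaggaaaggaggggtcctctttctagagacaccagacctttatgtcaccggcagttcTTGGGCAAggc
Lcn2: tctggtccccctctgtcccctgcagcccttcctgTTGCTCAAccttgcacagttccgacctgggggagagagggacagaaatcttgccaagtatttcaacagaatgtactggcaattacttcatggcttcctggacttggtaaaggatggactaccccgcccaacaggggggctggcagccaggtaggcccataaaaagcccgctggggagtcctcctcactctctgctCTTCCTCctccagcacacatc

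GAGGAAG was found upstream of 4 of the 5 primary granule genes, at positions -85 to -79 from the start in Elane and -95 to -89 in Prtn3, and in 1 of the 6 secondary granule genes. TTGCNNAA was found in 0 of the 5 primary and in 3 of the 6 secondary granule genes, with 2 matches in Ngp. It was also found in Fcnb and Gfi1, the 2 early commitment genes described below, which held no GAGGAAG. Of the tertiary genes with a promoter, 2 of 3 held GAGGAAG and 1 of 3 TTGCNNAA, and of the mature genes 3 of 8 and 1 of 8. Of all 32851 promoter windows of this length, 10.6% held GAGGAAG and 9.56% held TTGCNNAA. A promoter was listed for 24 of the 26 genes, and of these 10 held GAGGAAG and 7 held TTGCNNAA. The matches of the 2 patterns do not overlap in any of these windows. A match is a description of letters, not of a bound site. Prtn3 and Elane are next to each other on chromosome 10 among protein-coding genes, as are S100a8 and S100a9 on chromosome 3 and Trem1 and Trem3 on chromosome 17.

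Neither of the genes measured on the early commitment list, Gfi1 and Fcnb, showed the deep fall on untreated replicate 3. Gfi1, a transcriptional repressor needed for neutrophil development and also used by lymphocytes, measured 7.21, 7.39 and 7.85 in treated and 7.69, 7.80 and 8.10 in untreated samples, with untreated replicate 3 the highest. Fcnb, the lectin ficolin B, stayed between 6.34 and 6.77 on all 6 arrays. The array medians were 6.41 to 6.53, so its values may be at background and a fall could not be seen.

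The tertiary granule genes followed the secondary ones with smaller falls. Mmp9, gelatinase B, measured 11.47, 10.03 and 11.30 in treated and 10.37, 10.50 and 6.79 in untreated samples. Mmp8, neutrophil collagenase, measured 10.94, 9.08 and 9.34 against 9.67, 10.52 and 6.42. Untreated replicate 3 lay 15.4-fold (Mmp9) and 11.2-fold (Mmp8) under the mean log2 value of the other arrays, and a further Mmp9 probe set, with 9.94, 8.23 and 10.01 against 8.85, 8.66 and 5.28, was also lowest there. Pglyrp1, a peptidoglycan recognition protein, measured 10.84, 9.45 and 10.73 against 10.01, 8.88 and 8.19. Padi4, the enzyme that citrullinates histones in neutrophils, had low values of 6.003, 5.77 and 6.47 against 5.78, 6.31 and 4.69. All 4 genes were lowest on untreated replicate 3, and Pglyrp1 was also below all treated values on untreated replicate 2.

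Among genes of late and mature neutrophils, the calcium-binding alarmins S100a8 and S100a9 had the deepest falls. S100a8 measured 14.19, 12.96 and 13.75 in treated and 13.67, 12.18 and 6.80 in untreated samples. S100a9 measured 14.55, 11.88 and 12.91 against 14.36, 11.83 and 7.11. Both were lower in untreated replicate 2 than in untreated replicate 1, S100a8 by -1.48 and S100a9 by -2.53. Of the secondary granule genes Camp, Lcn2, Ltf and Cd177 were also lower there, by less (-0.59 to -0.09), while Ngp and Chil3 were not. The S100a8 probe set carries the suffix for probes shared with other transcripts. Fpr2, a formyl peptide receptor, measured 12.13, 11.00 and 11.21 against 11.40, 12.29 and 7.41. Trem3, an activating receptor of myeloid cells, measured 10.65, 9.31 and 9.35 against 10.10, 10.27 and 6.43. For these receptors untreated replicate 2 was the highest array (Fpr2) or next to it (Trem3), where S100a9 had been low.

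Csf3r, the receptor for the growth factor G-CSF, measured 8.16, 7.19 and 9.62 in treated and 7.46, 7.68 and 6.51 in untreated samples. Il1b, the cytokine interleukin-1 beta, measured 8.75, 8.20 and 10.29 against 8.36, 9.30 and 6.99. Treated replicate 3 was the highest array for both. Trem1, an amplifier of inflammatory signals, measured 8.80, 7.77 and 7.92 against 8.50, 8.90 and 6.86, while its further probe set stayed between 5.25 and 5.76. Ltb4r1, the leukotriene B4 receptor, measured 8.91, 8.31 and 8.89 against 8.19, 7.68 and 8.16. Cxcr2, the chemokine receptor of circulating neutrophils, measured 6.92, 6.90 and 6.87 against 6.63, 6.74 and 6.73. The Cxcr2 values spanned 0.29 and lay close above the array medians of 6.41 to 6.53, so they may be near background. In Ltb4r1 and Cxcr2 all treated values lay above all untreated ones. That was 2 of 26 genes, where 5.61% of all genes had the treated group wholly above. The reverse, with all untreated values above, held for 0 of 26 and for 5.24% of all genes.

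The falls on untreated replicate 3 were among the deepest on the array. It was the lowest of the 6 arrays in 20 of the 26 genes, against 13.3% of all genes. It lay at least 2-fold under the lowest other array in 14 of the 26 genes, against 0.984% of all genes. The 14 comprised all 6 secondary granule genes, 3 of 4 tertiary, 5 of 9 mature and 0 of 5 primary ones. Ranked over all 18193 genes by the difference between untreated replicate 3 and the mean of the other arrays, Chil3, Lcn2, Ngp, Camp, S100a8 and S100a9 took ranks 1 to 6 and Ltf rank 9. The remaining genes of the first 10 were Olfm4, Ifitm6 and Mgst1, all on the list of further neutrophil genes. The median difference was -7.30 for secondary, -2.64 for tertiary, -1.99 for mature and -1.40 for primary granule genes, against -0.004 over all genes. A fall cannot go below the background of a probe set, so these depths do not order the stages. In sorted bulk RNA, fewer cells of a type and less RNA per cell cannot be told apart.

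Treated replicate 2 was also low, to a degree that varied within stages. Beyond these genes, this array had the lowest limma array weight, 0.24 against 0.73 to 2.58 on the rest. Against the mean of the 4 other arrays its median difference was -1.79 for primary granule genes, -0.85 for secondary, -0.77 for tertiary and -0.76 for mature genes, where all genes had +0.07. It was the lowest of these 5 arrays in 18 of the 26 genes, against 25.7% of all genes, and at least 2-fold under that mean in 9, against 7.05% of all genes. The 9 were 3 of 5 primary (Mpo, Prtn3, Ctsg), 3 of 6 secondary (Cd177, Ltf, Lcn2), 1 of 4 tertiary (Mmp8) and 2 of 9 mature genes (S100a9, Csf3r). Heights above untreated replicate 3, taken on the linear intensity scale as a percentage of the mean of the 4 other arrays, show this within each gene. They were computed for the 21 genes at least 2-fold lower on untreated replicate 3 than the mean log2 value of the rest, a choice made after the values were seen. Treated replicate 2 reached 5.5% for Mpo, 7.5% for Prtn3, -1.0% for Ctsg and 32.1% for Ms4a3. For secondary granule genes it reached 70.4% for Camp, 68.5% for Chil3, 67.9% for Ngp, 43.4% for Lcn2, 34.8% for Ltf and 20.1% for Cd177. On this array Mpo, Prtn3 and Ctsg were thus near their levels on untreated replicate 3, while Camp, Chil3 and Ngp were not. The median was 45.4% for tertiary and 38.7% for mature genes, with a range of 20.2% (Csf3r) to 63.3% (S100a8) in the latter. The same 2-fold cut kept 27 of 41 further neutrophil genes and 15 of 23 monocyte and macrophage markers. Treated replicate 2 reached 7.6% to 64.0% in the former (median 26.6%) and 4.2% to 45.8% in the latter (median 29.2%). Heights near those of Mpo and Prtn3 were thus not particular to the primary granule genes.

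**Figure D2:**
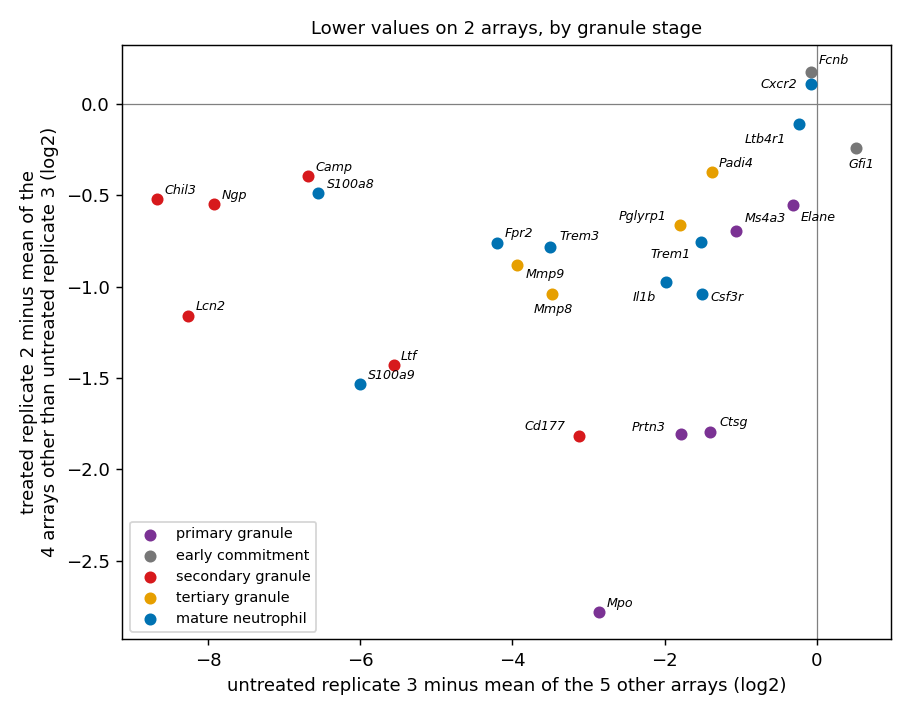
Each point is 1 neutrophil gene, coloured by stage; the horizontal axis gives untreated replicate 3 minus the mean of the 5 other arrays and the vertical axis treated replicate 2 minus the mean of the 4 arrays other than untreated replicate 3, both in log2. Mpo, Cd177, Prtn3 and Ctsg lie lowest on the vertical axis, while Chil3, Ngp and Camp lie far left with small vertical differences.

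The other arrays had mixtures of their own on the same percentage scale. Each of them is itself part of the mean that the scale divides by, so a high value on 1 array lowers the rest. The medians cover 4 of 5 primary and 7 of 9 mature genes, as Elane, Cxcr2 and Ltb4r1 did not meet the cut. In untreated replicate 2 the median was 118% for primary and 70.0% for secondary granule genes. There S100a9 stood at 25.03%, S100a8 at 36.6% and Pglyrp1 at 18.7%, but Fpr2 at 139% and Trem1 at 136%, so the mature genes did not go one way. Untreated replicate 1 had medians of 74.8% for primary, 86.5% for secondary, 63.8% for tertiary and 92.3% for mature genes, the last with a range from 31.2% (Csf3r) to 150% (S100a9). Treated replicate 1 had the highest medians for secondary (126%), tertiary (151%) and mature genes (124%), with 113% for primary ones. It lay above untreated replicate 1 in 25 of the 26 genes, against 9138 of all 18193 genes. Treated replicate 3 had medians of 77.1% for primary, 99.4% for secondary, 131% for tertiary and 63.6% for mature genes. Within the mature genes of that array Csf3r (256%) and Il1b (211%) were high and S100a8 stood at 110%, while Trem1, Trem3, S100a9 and Fpr2 lay between 47.7% and 63.6%. With 1 mouse per array these proportions have no replicate.

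The comparison of treated with untreated Tregs depended on untreated replicate 3 for most of these genes. With all arrays, 23 of the 26 genes had a positive difference (treated minus untreated), with a median of +0.89, where all genes had a median of +0.05 and 58.5% were above 0. Chil3 differed by +2.84 (14.01 ± 0.35 in treated, 11.17 ± 5.03 in untreated samples, SD, n = 3 each, limma 95% interval -2.31 to 7.99). S100a8 differed by +2.75 (13.63 ± 0.62 against 10.88 ± 3.61, interval -0.997 to 6.50), and Lcn2 by +2.80 (13.05 ± 0.85 against 10.25 ± 4.76, interval -2.13 to 7.73). These differences are smaller than the spread among the untreated samples. Limma called 0 of the 26 genes after Benjamini-Hochberg adjustment over all genes, with adjusted p values of 0.914 to 0.996, against 0% of all genes. At an unadjusted p under 0.05 there were 2 genes, against 4.99% of all genes. They were Pglyrp1 (difference +1.32, 10.34 ± 0.77 against 9.03 ± 0.92, interval 0.05 to 2.58) and Ltb4r1 (+0.69, 8.70 ± 0.34 against 8.01 ± 0.28, interval 0.13 to 1.26).

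Without untreated replicate 3 the differences of the secondary granule genes came close to 0, and those of the primary granule genes moved below it. Then 13 genes were above 0 and 13 below, where 59.1% of all genes were above 0, with a median of -0.02 (all genes +0.06), and 10 had turned sign. The median of the secondary granule genes went from +2.41 to +0.06, with Chil3 at -0.06 (interval -0.81 to 0.69), Ngp at -0.15 (-0.78 to 0.49) and Camp at +0.07 (-0.995 to 1.14). The primary granule genes went from a median of +0.06 to -0.33 and were then all 5 below 0, Mpo at -1.12 (-3.10 to 0.86). Tertiary and mature genes had positive medians of +0.27 and +0.21, with Pglyrp1 at +0.90 (-0.34 to 2.13). Ltb4r1 at +0.77 (0.09 to 1.45) was the 1 gene at an unadjusted p under 0.05, against 6.59% of all genes. Limma called 0 of the 26 and 0.176% of all genes in that fit, and the lowest adjusted p among the 26 was 0.714. Without treated replicate 2 as well, 18 of the 26 were above 0, the median was +0.20, and the primary and secondary medians were -0.01 and +0.39.

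**Figure D3:**
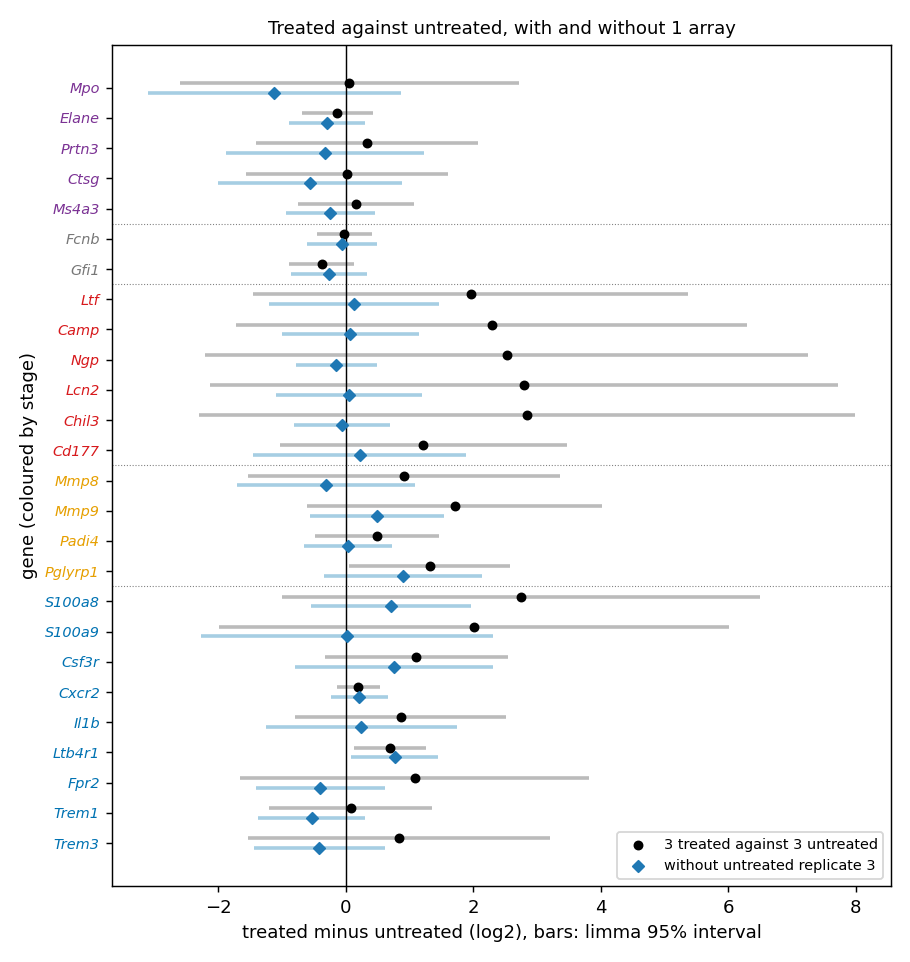
Treated minus untreated difference in log2 for each neutrophil gene with its limma 95% interval, over 3 against 3 arrays (black, grey bars) and without untreated replicate 3 (blue diamonds, light blue bars). The secondary granule genes move from between +1.22 and +2.84 to near 0, and their intervals shorten.

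Of 41 measured genes on a list of further neutrophil genes, 38 were above 0 with all arrays and 21 without untreated replicate 3 (medians +0.72 and +0.01), and 0 passed limma in either fit. Olfm4, the secondary granule protein olfactomedin 4, measured 10.63, 8.18 and 9.59 in treated and 10.11, 11.05 and 4.04 in untreated samples. Ifitm6 measured 12.49, 11.01 and 11.78 against 11.89, 11.01 and 6.04, and Mgst1, a microsomal glutathione transferase, 11.93, 9.59 and 11.15 against 11.23, 11.51 and 5.65. Olfm4 thus paired a low value on treated replicate 2 with the highest one on untreated replicate 2, as Mpo did. Csf2rb, the shared receptor chain for GM-CSF and interleukin-3, measured 11.19, 8.79 and 11.77 against 10.80, 11.90 and 6.03.

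Markers of other cells moved with the granule genes in part. Monocyte and macrophage markers (23 of 25 measured) were lowest on untreated replicate 3 in 19 genes, with Lyz2 at 8.01 against 11.93 to 13.42 on the rest and Csf1r at 8.27 against 11.18 to 12.66. Their summed intensity was 12067 to 31720 in treated and 5216 to 28293 in untreated samples, where the 26 neutrophil genes summed to 59128 to 143413 and 3194 to 103629. Erythroid and platelet markers (14 of 17 measured) summed to 5007 to 15503 and 1849 to 16755, with Car2 at 9.25 on treated replicate 2, 8.01 on untreated replicate 3 and 11.10 to 12.90 elsewhere. B cell markers (14 of 15) summed to 1788 to 2016 in treated and 2915 to 34406 in untreated samples, the lowest untreated sum again in replicate 3. Dendritic cell markers (14 of 15) summed to 11362 to 15584 and 11715 to 14424, sums that the brightest markers dominate. Of these 14 genes 6 were lowest on untreated replicate 3, with Tcf4 at 6.17 against 7.89 to 10.42 on the rest and H2-Ab1 at 7.63 against 9.15 to 11.42. The part of these cells in the results was not tested.

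Markers of other granulocytes and of progenitors had median ranges over the 6 arrays of 0.66 (eosinophil), 0.91 (basophil and mast cell) and 0.98 (progenitor). The median range was 2.16 for primary, 7.90 for secondary and 3.59 for tertiary granule genes, and 0.751 over all genes. Monocyte and macrophage, erythroid and platelet, and B cell markers lay between the primary and tertiary values, and dendritic cell markers below them. Wide ranges were thus not particular to the granule genes. Only 1 of 7 eosinophil and 3 of 8 basophil and mast cell markers were above the array median on at least 3 arrays, against 9 of 12 progenitor markers. The small ranges of the eosinophil and basophil lists may therefore reflect background. Eosinophil markers (7 of 11 measured) summed to 251 to 328 in treated and 319 to 419 in untreated samples, with Epx, eosinophil peroxidase, between 4.74 and 5.72 and Prg2, the major basic protein, between 4.53 and 5.19. Basophil and mast cell markers (8 of 9) summed to 624 to 935 and 664 to 1451, and Mcpt8, a basophil protease, reached 8.32 and 9.15 in untreated replicates 1 and 2 against 6.13 to 6.96 elsewhere. Progenitor markers (12 of 12) summed to 2546 to 3715 and 1992 to 4840, with the 2 lowest sums on untreated replicate 3 and treated replicate 2. Myb was also lowest on these arrays, at 8.94 and 9.44. The T cell side of the sort was present on all arrays, with Foxp3 at 9.95 to 12.44, Cd3e at 11.62 to 12.16 and Cd4 at 9.10 to 10.41. Itgam, which encodes the CD11b of the gate, measured 5.90, 4.84 and 5.96 in treated and 5.99, 6.64 and 5.15 in untreated samples. Its 2 lowest values thus fell on treated replicate 2 and untreated replicate 3. Except on untreated replicate 2, Itgam lay under the array median, so this order may reflect background. Itgax, which encodes CD11c, measured 7.46, 7.11 and 7.29 against 7.69, 7.35 and 6.12. The 3′ minus 5′ log2 difference of the Gapdh control probe sets, used to judge RNA integrity, was lowest on untreated replicate 3 at 2.02, against 3.23 to 4.10 on the rest.

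**Figure D4:**
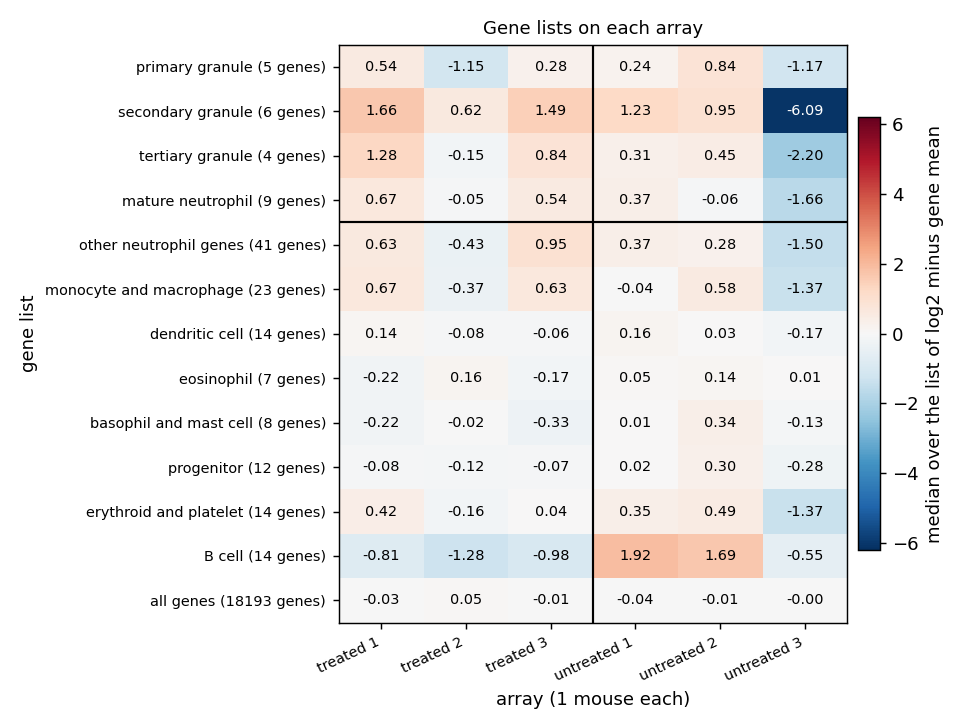
Median over each gene list (rows, number of measured genes in brackets, without the early commitment genes) of log2 intensity minus the gene's mean over the 6 arrays, on each array (columns). Untreated replicate 3 is lowest for every neutrophil stage shown, down to -6.09 for secondary granule genes. Treated replicate 2 is next lowest for primary (-1.15) and secondary granule genes (+0.62). The mean includes untreated replicate 3, so every other array lies above 0 for secondary granule genes, at +0.95 to +1.66 beside treated replicate 2.

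The genes whose profile over the 6 arrays lay closest to each stage were found among 1010 other genes with a range of at least 2, by the root mean square difference of values centred on the gene's mean. For the primary granule genes these were Rab31 (0.15), Apobec1 (0.20), Pxylp1 (0.21), Stx3 (0.21), Cx3cr1 (0.23) and Marchf1 (0.23). For the secondary granule genes they were Ifitm6 (0.50), Mgst1 (0.61), Lyz2 (0.72), Lyz1 (0.73), Pygl (0.73) and Olfm4 (0.74). For the mature genes they were Fcer1g (0.22), Atp8b4 (0.24), Ceacam10 (0.24), Klra16 (0.27), Mcemp1 (0.28) and Tyrobp (0.29). The closest secondary genes were farther from their profile than the others, whose profiles span a smaller range.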

How the data were processed

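RNA of sorted splenic Tregs from 6 mice had been amplified in 2 rounds and hybridised to Affymetrix M430v2 arrays, per the labels' protocols. The authors deposited RMA intensity values on a linear scale, between 5.47 and 29585, made in GenePattern per the series' design text; no RMA version is given in the sources used here. RMA makes arrays alike in distribution, so a change common to most transcripts could not be seen. Here log2 was taken, 64 control probe sets were left out of 45101, and lmFit and eBayes of limma 3.58.1 (R 4.3.3) were run on the other 45037 with treated against untreated as the single term. P values were adjusted over 18193 genes (threshold 0.05), named from 34945 probe sets with 1 symbol, of which 34754 were updated by gene identifier; 932 had several symbols and 9160 none. Each mouse gave 1 array, so the spread behind each p value is that between mice. The fit was checked on simulated data. The neutrophil genes, stages, marker lists and motifs were chosen with earlier results of these data known. All 26 measured neutrophil genes are named, from each marker list at most the 4 with the largest range, Foxp3, Cd4, Cd3e, Itgam and Itgax always, and for 3 stages the 6 genes of closest profile. Plots used matplotlib 3.10.9 (Python 3.11.15).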

Additional observations from a re-analysis of the deposited data

How the results depend on the processing

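Over all genes limma called 0, and 1 after median centring, 5 with array weights, and 0 after quantile normalization, with the mean of probe sets, with eBayes trend and robust, without dim probe sets (11531 genes above the array median on at least 3 arrays, with 25 of the 26 neutrophil genes) and with every probe set tested alone. Leaving out 1 array at a time gave 0 to 32 called genes, the 32 without untreated replicate 3, and 6 were called without treated replicate 2 and untreated replicate 3, a choice made after the data were seen. Of the 26 neutrophil genes 0 were called in each of these fits by gene. The number above 0 was 22 to 25 under the settings that kept all arrays and 13 to 25 when 1 array was left out, 13 without untreated replicate 3 and 18 without treated replicate 2 and untreated replicate 3. The stage medians ranged, leaving out 1 array, from 0.06 to 3.68 for secondary, 0.27 to 1.56 for tertiary, 0.21 to 1.40 for mature and -0.33 to 0.63 for primary granule genes. The primary and secondary medians of untreated replicate 3 and treated replicate 2 against the other arrays stayed low after quantile normalization (primary -1.36 and -1.75, secondary -7.29 and -0.72) and median centring (-1.39 and -1.89, -7.29 and -0.95). On treated replicate 2 quantile normalization moved the mature median from -0.76 to -0.49 and the tertiary one from -0.77 to -0.54. The early commitment median of untreated replicate 3 was above 0 throughout (0.22, 0.24 and 0.23). With the replicate number as a block limma called 0 genes and 0 of the 26. The numbers were not taken to pair the samples in the main fit. Deviations of same-numbered samples correlated at 0.51, 0.01 and 0.10 over genes. Whether same-numbered samples were processed together was not tested. Array data hold no counts, and 3 mice per group limit what could be called.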

Other observations

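Untreated replicate 2 had the highest values of the 4 progenitor markers with the largest range, out of 12 measured. It lay above untreated replicate 1 in 9 of the 12, against 10080 of all 18193 genes. Cd34, a surface protein of blood progenitors, measured 7.58 there against 5.26 to 6.31 on the other arrays, Kit, the receptor for stem cell factor, 8.25 against 5.98 to 7.48, and Angpt1, angiopoietin 1, 7.99 against 5.38 to 6.31. Myb, a transcription factor of progenitors that T cells also use, measured 10.94 against 8.94 to 10.45. Of the 5 primary granule genes 2, Mpo and Elane, were highest on this array, at 10.19 and 8.08, while Ctsg and Ms4a3 were highest on treated replicate 1 and Prtn3 on treated replicate 3. With 1 mouse behind the array, these values have no replicate.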
